A study of Mus musculus with 3 samples.

Results

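The genes described here are 37 genes for the extracellular matrix and its remodelling, taken by symbol from the 27999 entries of the deposited count tables, and all 37 were found. They fall into 7 collagens, 3 laminin chains, 8 other matrix glycoproteins, 7 lecticans and their partners, 4 heparan sulphate proteoglycans, 4 proteases and 4 protease inhibitors. The counts are unique molecular identifiers (UMIs) from single GFP-positive cells of 3 mouse brain tumours that the labels call a pediatric brain glioma, numbered 1, 2 and 4 after the labels. All 3 tumours share the genotype H3f3aK27M PdgfraD842V Trp53R270H, a histone H3.3 mutant, an activated PDGF receptor and a mutant p53. The mice were heterozygous for the reporter Gt(ROSA)26Sortm4(ACTB-tdTomato,-EGFP)Luo, in a line with the prefix B6.129(Cg), and their brains had been electroporated with MADR constructs on postnatal day 1 or 2. Collection was at postnatal day 150 for tumour 1, day 106 for tumour 2 and day 149 for tumour 4, and each gave 1 library. No normal brain and no other genotype was analysed here, so effects of the animal, its age and the library on a tumour cannot be told apart and no test was made between tumours.

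The matrix of the adult brain is poor in fibrillar collagen and rich in hyaluronan, which the lecticans (versican, neurocan and brevican) bind together with link proteins and tenascins. Collagen IV, laminins and perlecan make up the basement membrane around blood vessels. Oligodendrocyte progenitor cells (OPCs) and astrocytes produce lecticans and the receptor phosphatase Ptprz1, and link proteins such as Hapln2 lie with brevican and versican at nodes of Ranvier along myelinated axons. Matrix metalloproteinases and ADAMTS proteases cut matrix proteins, and tissue inhibitors of metalloproteinases (TIMPs) and serpins restrain proteases. Gliomas are known to remodel this matrix along vessels and fibre tracts.

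The libraries held 47120617, 15231673 and 53551127 UMIs over 3386, 1632 and 4624 barcodes in tumours 1, 2 and 4, with median totals of 11908.5, 7570.5 and 9102.5 UMIs. Between 17 and 31 barcodes of a tumour also occurred in another. Clusters were made in each tumour without the 37 genes and named from fixed marker lists, and "like" in a class name marks that the names were rebuilt and are not the authors'. OPC-like cells numbered 2585, 305 and 3627 in tumours 1, 2 and 4, and the 305 of tumour 2 comprised a cluster of 117 cells led by Ttr, Pdgfra and Ednrb and a cluster of 188 cells that also carried astrocyte markers, with a median mitochondrial share of 10.95%. Committed OPC-like cells (191 in tumour 1, 401 in tumour 2), oligodendrocyte-like cells (281 in tumour 2, 65 in tumour 4), myeloid-like cells (163, 395 and 82) and small astrocyte-like, neuroblast-like and vascular-like groups made up most of the rest. In tumours 1, 2 and 4, 386, 67 and 603 cells stayed unnamed, among them 425 cells of tumour 4 whose leading genes included Mag and Gpr17. Levels are given as CPM, the usual library-scaled unit (a gene's share of all UMIs of the same cells), with exact 95% Poisson intervals in brackets that cover counting error only. A 3′ count is not scaled by gene length, so levels are compared within a gene and not between genes.

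Sequences upstream of 4 of the genes are shown: Hapln2 for the contrast of oligodendrocyte-like cells below, Mmp14 for those of myeloid-like and cycling cells, Timp1 for the contrast between tumours, and Bcan as the genomic neighbour of Hapln2. Each was read from RefSeq promoters (GRCm38.p6), 5′ to 3′ on the gene's strand, and trimmed to the bases before the start. Capitals mark the CCAAT box (CCAAT) and the GC box (GGGCGG) on either strand, 2 general promoter elements that were picked after the sequences had been read.
Hapln2: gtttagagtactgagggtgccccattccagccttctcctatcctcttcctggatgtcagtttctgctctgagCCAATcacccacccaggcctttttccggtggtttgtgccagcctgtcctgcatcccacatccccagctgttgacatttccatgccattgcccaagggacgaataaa
Bcan: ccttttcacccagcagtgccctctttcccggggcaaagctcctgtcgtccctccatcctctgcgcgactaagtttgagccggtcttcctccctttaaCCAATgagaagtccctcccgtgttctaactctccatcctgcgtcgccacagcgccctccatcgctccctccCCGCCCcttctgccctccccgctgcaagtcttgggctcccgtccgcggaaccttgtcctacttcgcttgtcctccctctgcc
Mmp14: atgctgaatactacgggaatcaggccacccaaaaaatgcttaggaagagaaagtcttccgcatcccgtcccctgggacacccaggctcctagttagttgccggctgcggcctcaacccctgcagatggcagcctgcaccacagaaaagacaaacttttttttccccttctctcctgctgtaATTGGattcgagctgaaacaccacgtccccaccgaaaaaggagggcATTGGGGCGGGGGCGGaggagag
Timp1: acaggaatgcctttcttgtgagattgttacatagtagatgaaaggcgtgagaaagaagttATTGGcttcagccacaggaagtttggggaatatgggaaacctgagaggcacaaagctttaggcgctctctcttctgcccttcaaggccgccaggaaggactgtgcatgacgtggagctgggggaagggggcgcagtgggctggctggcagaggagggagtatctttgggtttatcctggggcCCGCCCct
The Hapln2 stretch is chr3:88027584-88027761 (minus strand), Bcan chr3:88000357-88000606 (minus strand), Mmp14 chr14:54431348-54431597 (plus strand) and Timp1 chrX:20869916-20870165 (plus strand). Hapln2 and Bcan are neighbours on chromosome 3, on the same strand and 21.52 kb apart with 0 other coding genes between them in the GENCODE annotation. Their stretches hold 1 CCAAT each, and Bcan also holds 1 GC box. The Mmp14 stretch holds 2 of each, of which 1 CCAAT box and 1 GC box overlap. In windows of 250 bases, CCAAT was found upstream of 15 of the 27 matrix genes with a promoter in the table (55.56%) and of 34.46% of all 27025 promoters. GGGCGG was found in 20 of the 27 (74.07%) and in 32.94% of all promoters. These matches describe the letters only.

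The plot of levels by class shows how unevenly the genes were spread over the cells.

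**Figure D1:**
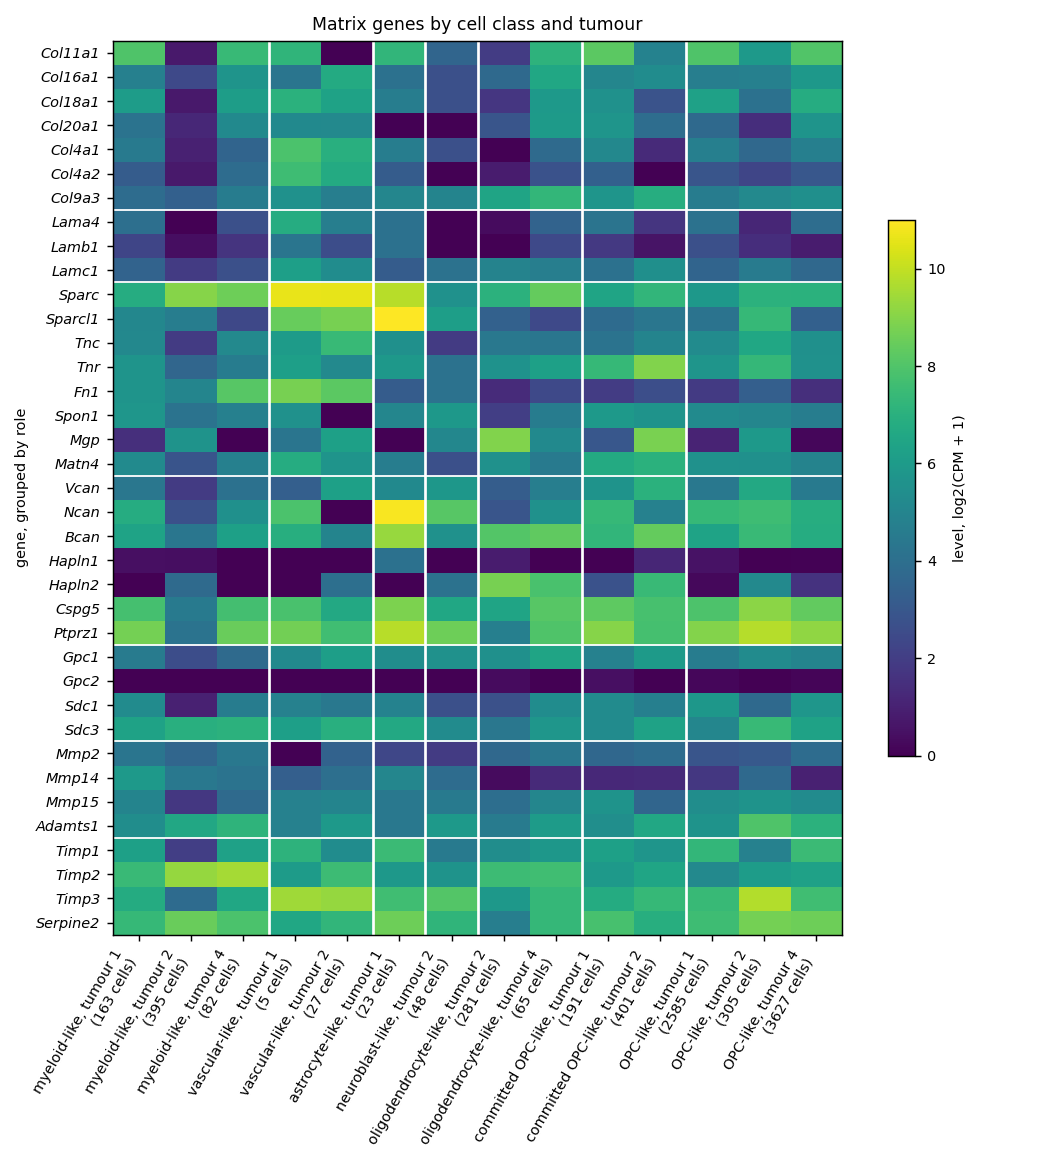
Level of the 37 matrix genes, as log2(CPM + 1), in each cell class and tumour with the number of cells in brackets; rows are grouped by role. Sparc and Fn1 are bright in the vascular-like columns and Sparcl1 and Ncan in the 23 astrocyte-like cells. Hapln2 and Mgp are bright in the oligodendrocyte-like and committed OPC-like cells of tumour 2, and Gpc2 is dark in every column.

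Among the collagens, Col11a1, a chain of a minor fibrillar collagen, was lower in tumour 2 than in the other tumours. The OPC-like level was 248 CPM (243 to 254) for tumour 1, 59.0 (49.5 to 69.7) for tumour 2 and 255 (250 to 260) for tumour 4. Tumours 1 and 4 lay close together and tumour 2 was 4.32-fold below tumour 4. Col18a1, which encodes the basement membrane collagen that yields endostatin, had 76.8, 16.4 and 113 CPM in tumours 1, 2 and 4. Col20a1, a collagen of the FACIT group that sits on other fibrils, had 12.5, 1.72 and 50.4 CPM, the 1.72 resting on 4 UMIs. Tumour 4 was thus highest in both genes and tumour 2 lowest. Col16a1 was also highest in tumour 4, at 57.8 CPM, while tumours 1 and 2 had 25.4 and 27.1. Col9a3, a chain of cartilage collagen IX, ran from 23.3 CPM in tumour 1 to 44.2 in tumour 4.

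Timp1, an inhibitor of metalloproteinases, and Sdc1, a cell-surface heparan sulphate proteoglycan, were also low in the OPC-like cells of tumour 2, as was the collagen IV chain Col4a1. Timp1 stood at 155 CPM (151 to 159) for tumour 1, 28.0 (21.6 to 35.7) for tumour 2 and 182.1 (178 to 186) for tumour 4. Sdc1 had 55.5, 12.5 and 54.3 CPM. In both genes the interval of tumour 2 lay far below those of the other tumours. The laminin chain Lama4 had 16.6, 1.29 and 14.2 CPM, the 1.29 resting on 3 UMIs, and stayed under 20 CPM in all 3 tumours. Lamb1 ran from 0.813 CPM in tumour 4 to 5.52 in tumour 1. Lamc1, the gamma chain shared by most laminins, went the other way, with 10.5, 23.2 and 12.2 CPM in tumours 1, 2 and 4.

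More of the genes were highest in tumour 2. Timp3, an inhibitor that binds to the matrix itself, stood at 170 CPM (166 to 174) for tumour 1, 850 (813 to 888) for tumour 2 and 200 (196 to 205) for tumour 4. Adamts1, a protease that cuts versican and other lecticans, had 48.8, 254 and 135 CPM. Sparcl1 (hevin), a glycoprotein that astrocytes secrete at synapses, had 17.4, 163 and 9.42 CPM. Each of the 3 tumours had its own level of these genes, with no overlap of the counting intervals. Versican (Vcan) had 20.1, 99.0 and 22.1 CPM, tenascin-R (Tnr), which crosslinks lecticans, 53.0, 161 and 45.8, and syndecan-3 (Sdc3) 32.3, 170 and 80.8. The Timp3, Sparcl1 and Adamts1 values of tumour 2 came chiefly from the cluster of 188 cells with astrocyte markers. Timp3 was at 1159 CPM there and at 227 in the cluster of 117 cells. The cluster of 117 cells alone had 123 CPM of Adamts1, 71.3 of Sparcl1, 80.4 of tenascin-C (Tnc), 63.5 of Sparc and 11.7 of Timp1. Without the 188 cells, tumour 2 thus stayed highest for Timp3, Sparcl1 and Tnc and lowest for Timp1, while Adamts1 and Sparc were highest in tumour 4 (135 and 129 CPM). The log2 ratio of tumour 2 to tumour 1 was then 0.42 for Timp3, instead of 2.32. Of 25 matrix genes at 20 CPM or more in an OPC-like cluster of tumour 2, 15 were highest in the 188 cells. Among them were also Sdc3, Cspg5, Ptprz1, Serpine2, Ncan, Lamc1, Mgp and Hapln2. The same cluster was the highest for 50.6% of all 7075 genes at this level.

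Mgp, a matrix inhibitor of calcification, and Hapln2 had the widest ratios between tumours. Mgp had 1.12, 59.4 and 0.143 CPM, the last from 6 UMIs. Hapln2 had 0.173, 34.9 and 2.08 CPM, the first from 6 UMIs. Both genes were also high in the oligodendrocyte-like cells of tumour 2 (481 and 429 CPM) and in its committed OPC-like cells (445 and 175 CPM). Whether free RNA from those cells adds to the OPC-like values of tumour 2 was not tested. The oligodendrocyte markers of the fixed list summed to 5096 CPM in OPC-like cells of tumour 2, which is 6.17% of their level in oligodendrocyte-like cells.

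Other genes kept closer levels, but Cspg5, Serpine2 and Bcan were still 2.21, 2.15 and 2.08-fold apart between the highest and the lowest tumour. Ptprz1, the receptor phosphatase for pleiotrophin, had 492, 878 and 577 CPM in OPC-like cells of tumours 1, 2 and 4. Neurocan (Ncan) had 166, 190 and 116 CPM, brevican (Bcan) 83.5, 174 and 111, and the transmembrane proteoglycan Cspg5 (neuroglycan C) 245, 541 and 331. The membrane metalloproteinase Mmp15 had 41.5, 49.9 and 39.1 CPM, spondin-1 (Spon1) 38.0, 32.3 and 24.6, matrilin-4 (Matn4) 46.8, 44.8 and 29.7, and glypican-1 (Gpc1) 23.8, 38.3 and 29.9. Serpine2, a serpin that inhibits thrombin and plasminogen activators, had 194, 416 and 376 CPM. Glypican-2 and Hapln1 were hardly counted: OPC-like cells held 5, 0 and 4 UMIs of Gpc2 and 16, 0 and 2 UMIs of Hapln1, and a count of 0 in tumour 2 allows up to 1.29 CPM.

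**Figure D2:**
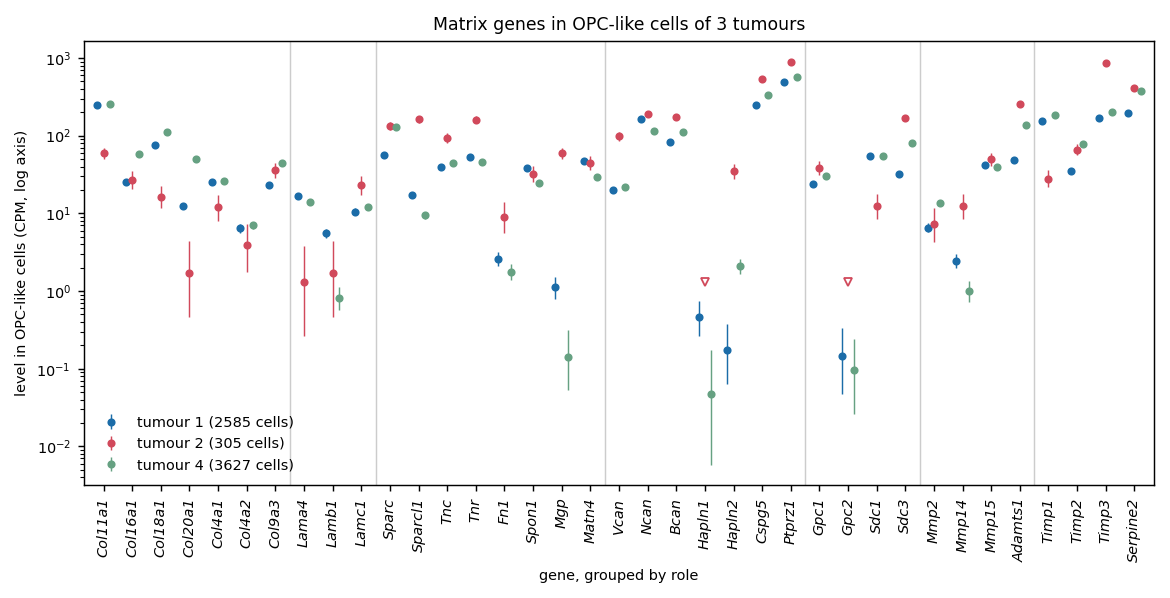
Level of each matrix gene in the OPC-like cells of tumours 1, 2 and 4, in CPM on a log axis, with exact 95% Poisson intervals as bars; open triangles mark the limit of 3 counts where no UMI was found. Tumour 2 lies below the other tumours for Col11a1, Col18a1, Timp1 and Sdc1, and above them for Timp3, Adamts1, Sparcl1 and Mgp.

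Of the 37 genes, 29 had at least 20 CPM in the OPC-like cells of a tumour, and 22 of these were 2-fold or more apart between the highest and the lowest tumour, where 35.3% of all 7266 genes at this level were. Over neural cells as a whole (3172, 1035 and 4295 cells of neural clusters), 23 of 29 were, against 40.1% of 7399 genes. The median ratio was 2.35-fold for the matrix genes in OPC-like cells and 1.67-fold for all genes at this level. Of the 22 genes, 14 were highest in tumour 2 while 7 peaked in tumour 4 and 1 (Sdc1) in tumour 1. Tumour 2 was also the highest for 58.0% of all 2566 genes that were 2-fold or more apart. Without tumour 2 the count was 6, without tumour 1 it was 15 and without tumour 4 it was 19. Without the 188 cells of tumour 2 it was 22, of which 19 were shared. Leaving out a tumour can only narrow the ratio of any gene, matrix gene or not. The shares of all genes in these settings are not given, so nothing particular to the matrix genes can be read from these counts. Among neural cells the ratio of Col11a1 was 10.0-fold and that of Col18a1 15.6-fold, wider than in OPC-like cells alone. A wider list of 235 other matrix genes had 37 of 67 genes 2-fold or more apart in OPC-like cells and 45 of 71 in neural cells. Its widest ratios in OPC-like cells at 100 CPM or more were those of cathepsin S (Ctss) with 24.3, 133 and 3.59 CPM, syndecan-4 (Sdc4) with 62.6, 300 and 22.1, and Cyr61, a matricellular protein, with 46.9, 295 and 60.4. In neural cells they were Ctss, Adamts4 (10.4, 111 and 18.5 CPM) and cathepsin B (Ctsb, 115, 523 and 66.4 CPM). Ctss is a myeloid gene, and the 11 microglia markers summed in OPC-like cells to 1.46%, 3.17% and 0.27% of their level in myeloid-like cells.

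Within OPC-like cells the genes also differed from cluster to cluster. In tumour 4, Timp3 ran from 48.1 to 463 CPM over the OPC-like clusters and Spon1 from 3.21 to 44.2. In tumour 1, Timp3 ran from 70.5 to 437 CPM and Timp1 from 80.7 to 295, both highest in a cluster of 426 cells led by Gbp2, Hspb1 and interferon-induced genes such as Iigp1 and Ifit3. In tumour 4, Timp1 was highest, at 266 CPM, in a cluster of 217 cells led by Ly6a and Ifit3, which also held the highest Ptprz1 (893 CPM). Timp1 was thus highest in a cluster led by interferon genes in both tumours. Serpine2 was highest in clusters led by the mitotic gene Ccnb1, with 283 CPM in 264 cells of tumour 1 and 478 in 510 cells of tumour 4. In tumour 1, 13 of the 27 matrix genes at 20 CPM or more were highest in a cluster of 232 cells (median 6905 UMIs, mitochondrial share 9.25%), which was also the highest for 20.8% of all 6938 genes at this level. In tumour 4, 10 of 27 were highest in a cluster of 737 cells (median 6679 UMIs, 10.11%) led by Cxcl10, Igf2 and Zfp36, as were 1190 of all 7939 genes. Col11a1, Col16a1, Col20a1, Lama4, Matn4, Bcan, Cspg5 and Adamts1 were in both sets. The part of cell quality in these levels was not tested.

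Cycling OPC-like cells were compared with non-cycling OPC-like cells of the same tumours, called from 56 cell-cycle genes after each cell had been thinned to 2000 UMIs. Of the 35 matrix genes tested, 0 rose and 7 fell in cycling cells by edgeR's quasi-likelihood test with Benjamini-Hochberg adjustment, with the tumour as a block. The 7 were the glycoproteins Sparc, Tnr and Matn4, the lectican Ncan, the protease Mmp14 and the inhibitors Timp1 and Timp3. None of the 7 collagens, 3 laminin chains or 3 tested heparan sulphate proteoglycans passed the test. Of all 13236 genes, 21.2% passed, 11.7% higher and 9.5% lower.

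The largest fall was that of Mmp14, which encodes MT1-MMP, a membrane protease that activates pro-MMP2. Cycling cells had 1.35, 8.28 and 0.678 CPM of Mmp14 in tumours 1, 2 and 4, against 3.88, 14.1 and 1.41 in non-cycling cells. Cycling cells were lower in each of the 3 tumours, at low counts (log2 fold change -1.27 ± 0.34 SE, adjusted p = 0.0135, edgeR). Timp1 had 138, 21.5 and 164 CPM in cycling cells and 176, 39.9 and 204 in non-cycling cells, also lower in each tumour (-0.40 ± 0.11, adjusted p = 0.0143, edgeR). Tnr had 47.8, 96.0 and 39.1 CPM in cycling cells and 54.8, 215 and 47.8 in non-cycling cells (-0.45 ± 0.13, adjusted p = 0.0209, edgeR). The gap was widest in tumour 2. Matn4 fell by 0.42 and Ncan by 0.34 on the log2 scale, each lower in all 3 tumours. Sparc, an antiadhesive glycoprotein, fell by 0.30 and passed narrowly (adjusted p = 0.0490, edgeR). Timp3 was lower in cycling cells of tumour 1 (139 against 198 CPM) and tumour 4 (140 against 233) but not of tumour 2 (859 against 843), with a fitted log2 fold change of -0.44 ± 0.12. Serpine2, highest in the Ccnb1 clusters, had a log2 fold change of -0.0055 and did not pass.

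**Figure D3:**
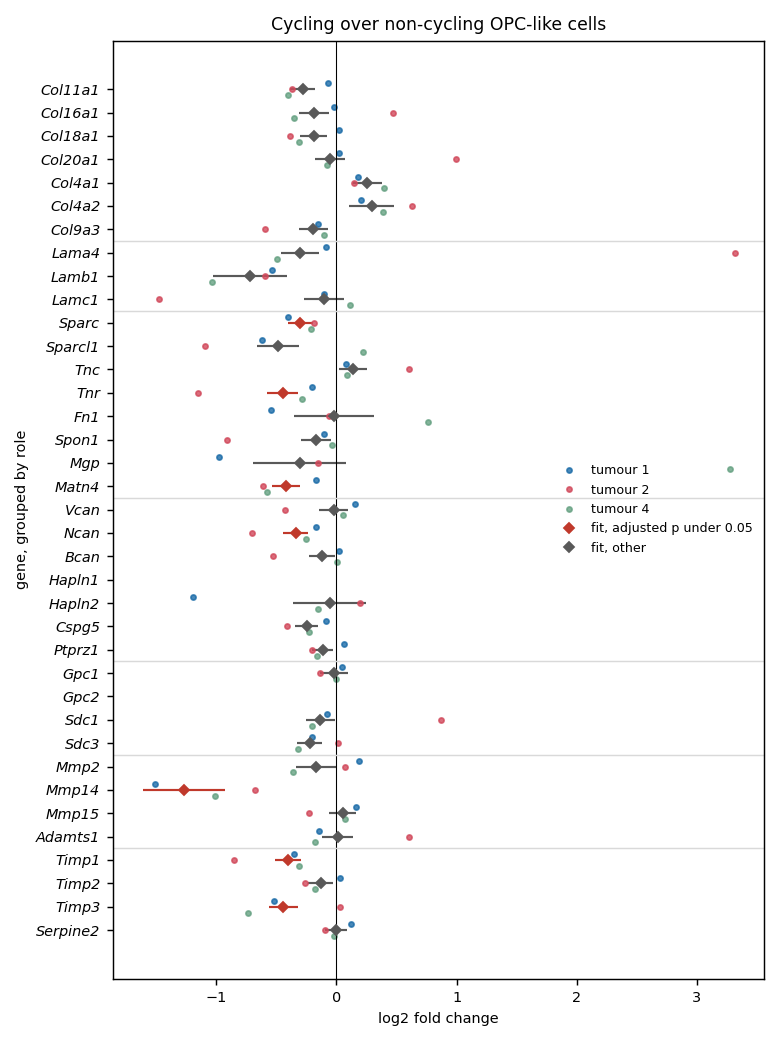
Log2 fold change of each matrix gene in cycling over non-cycling OPC-like cells: small points are single tumours (ratio of CPM), diamonds the fit with its standard error, red where the adjusted p was under 0.05. The red diamonds all lie left of 0, between -1.27 for Mmp14 and -0.30 for Sparc, and the Timp3 point of tumour 2 lies at 0.03.

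The median log2 fold change of the 35 genes was -0.17, against -0.04 over all genes tested. An unadjusted p under 0.05 was found for 11 of the 35, and the share of all genes at that limit was not computed. Cycling cells were also more deeply counted, with median totals of 14346, 7026 and 10810 UMIs against 10547, 5919.5 and 8876 in non-cycling cells. The calls rest on tumours 1 and 4: without tumour 1 there were 0, without tumour 4 there were 2 and without tumour 2 there were 7, of which 5 were shared, and DESeq2 called 1 (Timp1). Without the tumour block, or with all neural cells in place of OPC-like cells, the count was 0. Over all neural cells Timp3 and Ncan had log2 fold changes of 0.03 and 0.12. The shares of all genes in these settings are not given, so the counts show nothing particular to the matrix genes. In the wider matrix list 9 of 154 tested genes rose and 18 fell. The 3 largest rises were in Hmmr (5.12), a hyaluronan receptor that is itself one of the cell-cycle genes used, Fbln1 (1.52) and the collagen crosslinking enzyme Loxl2 (1.21). The 3 largest falls were in Ecm1 (-1.09), the crosslinking enzyme Tgm2 (-0.90) and the heparan sulphate 6-O-endosulphatase Sulf1 (-0.63).

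Oligodendrocyte-like cells, present in tumours 2 and 4, had more Hapln2, Mgp and Col9a3 than OPC-like cells and less Adamts1. These were the 4 matrix genes of 36 tested that passed edgeR's quasi-likelihood test, while 7.5% of all 14474 genes passed (5.42% higher, 2.08% lower). Hapln2 (Bral1) binds hyaluronan and stabilises lecticans at nodes of Ranvier. It had 429 CPM (409 to 450) in tumour 2 and 232 (197 to 271) in tumour 4 in oligodendrocyte-like cells, against 34.9 (27.7 to 43.3) and 2.08 (1.67 to 2.57) in OPC-like cells. The classes were far apart in both tumours (log2 fold change 5.51 ± 0.75 SE, adjusted p = 0.00171, edgeR with Benjamini-Hochberg adjustment). Mgp had 481 and 36.5 CPM in oligodendrocyte-like cells and 59.4 and 0.143 in OPC-like cells of tumours 2 and 4 (4.86 ± 0.81, adjusted p = 0.00544, edgeR). The level in tumour 4 rests on 25 UMIs in oligodendrocyte-like cells. Col9a3 had 85.8 and 156 CPM in oligodendrocyte-like cells and 35.7 and 44.2 in OPC-like cells (1.59 ± 0.28, adjusted p = 0.00784, edgeR). Without tumour 4, Col9a3 did not pass (adjusted p = 0.100, edgeR).

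Adamts1 had 23.0 and 65.7 CPM in oligodendrocyte-like cells of tumours 2 and 4 and 254 and 135 in OPC-like cells (log2 fold change -2.14 ± 0.47, adjusted p = 0.0234, edgeR). It was lower in both tumours, but the OPC-like level of tumour 2 came chiefly from the 188 cells with astrocyte markers. Adamts1 did not pass at either other cluster resolution (adjusted p = 0.192 and 0.0914, edgeR). Bcan, the genomic neighbour of Hapln2, had 267 and 320 CPM in oligodendrocyte-like cells and 174 and 111 in OPC-like cells, and did not pass (1.25 ± 0.46, adjusted p = 0.121, edgeR). Several genes abundant in OPC-like cells had lower values in oligodendrocyte-like cells of both tumours without passing. Ptprz1 had 26.1 and 254 CPM in oligodendrocyte-like cells against 878 and 577 in OPC-like cells (adjusted p = 0.0863, edgeR), and Ncan 6.46 and 46.7 against 190 and 116 (adjusted p = 0.0667, edgeR). The gap was wide in tumour 2 and narrower in tumour 4. OPC markers in oligodendrocyte-like cells stood at 52.3% of their OPC-like level in tumour 2 and at 72.6% in tumour 4. Ptprz1 and Ncan were also both higher in the 188 cells with astrocyte markers than in the other OPC-like cluster of tumour 2. The part of either in the gap was not tested.

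The median log2 fold change of the 36 genes was -0.73, against -0.12 over all genes tested. Of the 36, 18 had an unadjusted p under 0.05, and the share of all genes at that limit was not computed. The count of calls was 7 without tumour 1, 11 without tumour 2 and 5 without tumour 4, and 0 without the tumour block. DESeq2 called 10 (4 higher, 6 lower). As the shares of all genes in these settings are not given, nothing particular to the matrix genes can be read from these counts. In the wider list 12 of 193 genes rose and 6 fell. That list includes Cspg4, one of the OPC markers that named the classes, so its value here is no independent result. The testicans Spock1 (4.83) and Spock3 (4.55) and Emilin2 (3.89) had the largest rises in log2 terms. The chondroitin sulphate enzymes Chst11 (-2.50) and Chsy1 (-2.50) and the endocytic receptor Lrp1 (-2.39) had the largest falls.

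Committed OPC-like cells of tumours 1 and 2, a comparison added after the classes had been seen, had higher Col9a3 than OPC-like cells. Col9a3 had 52.6 and 116 CPM in committed OPC-like cells and 23.3 and 35.7 in OPC-like cells (log2 fold change 1.42 ± 0.28, adjusted p = 0.0499, edgeR with Benjamini-Hochberg adjustment). This was the only one of 36 matrix genes to pass, where 0.815% of all genes did (0.801% higher, 0.0138% lower), and the call was lost on leaving out any tumour (adjusted p from 0.0572 to 0.260, edgeR). Tnr had 164 and 487 CPM in committed OPC-like cells against 53.0 and 161 in OPC-like cells, Matn4 104 and 131 against 46.8 and 44.8, and Hapln2 5.77 and 175 against 0.173 and 34.9. All 3 were higher in both tumours and none passed the test (adjusted p = 0.353, 0.385 and 0.0762, edgeR). Within tumour 2, Tnr reached 832 CPM, Vcan 243 and Matn4 237 in a committed cluster of 129 cells led by Gpr17 and Bmp4. In the wider list only the basement membrane linker Nid1 passed (3.11).

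Myeloid-like cells had more Fn1, Mmp14, Timp2, Sparc and Mmp2 than OPC-like cells. These 5 of 36 matrix genes rose and 0 fell in edgeR's quasi-likelihood test with Benjamini-Hochberg adjustment, while 11.6% of all 14474 genes passed (10.6% higher, 1.04% lower). At an unadjusted p under 0.05 the count was 10, and the share of all genes at that limit was not computed. DESeq2 called 5 higher and 3 lower, and the fit without the tumour block called 3, both given without the share of all genes. Fibronectin (Fn1), a glycoprotein that integrins bind, had 51.6 CPM (43.5 to 60.7), 31.5 (25.4 to 38.7) and 284 (251 to 320) in myeloid-like cells of tumours 1, 2 and 4, against 2.62 (2.11 to 3.21), 9.04 (5.59 to 13.8) and 1.77 (1.39 to 2.22) in OPC-like cells. The classes did not overlap in any tumour, and tumour 4 was the highest (log2 fold change 5.03 ± 0.78 SE, adjusted p = 0.00118, edgeR). Timp2, which both inhibits metalloproteinases and takes part in the activation of pro-MMP2, had 174, 610 and 727 CPM in myeloid-like cells and 35.1, 66.3 and 77.1 in OPC-like cells (3.52 ± 0.41, adjusted p = 0.000155, edgeR). Mmp14 had 60.9, 20.2 and 17.1 CPM in myeloid-like cells and 2.45, 12.5 and 1.00 in OPC-like cells (3.68 ± 0.62, adjusted p = 0.00221, edgeR). The counting intervals of Mmp14 overlapped in tumour 2 (15.4 to 26.1 against 8.36 to 17.9) and not in tumours 1 and 4.

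Sparc had 112, 516 and 386 CPM in myeloid-like cells and 57.1, 134 and 129 in OPC-like cells (log2 fold change 2.17 ± 0.47, adjusted p = 0.0115, edgeR). Mmp2, the gelatinase that MT1-MMP activates, had 18.6, 11.3 and 20.3 CPM in myeloid-like cells and 6.56, 7.32 and 13.6 in OPC-like cells (1.42 ± 0.31, adjusted p = 0.0107, edgeR). All 5 genes were higher in myeloid-like cells of each tumour. The fitted values exceed most of the plain CPM ratios because the TMM scaling raised the median of all genes by 0.50 on the log2 scale over scaling by total UMIs. With total UMIs, Mmp2 did not pass (0.93, adjusted p = 0.137, edgeR) and the other 4 did. Without tumour 1 Mmp2 did not pass (adjusted p = 0.132, edgeR), and without tumour 4 Sparc did not (adjusted p = 0.0653, edgeR).

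**Figure D4:**
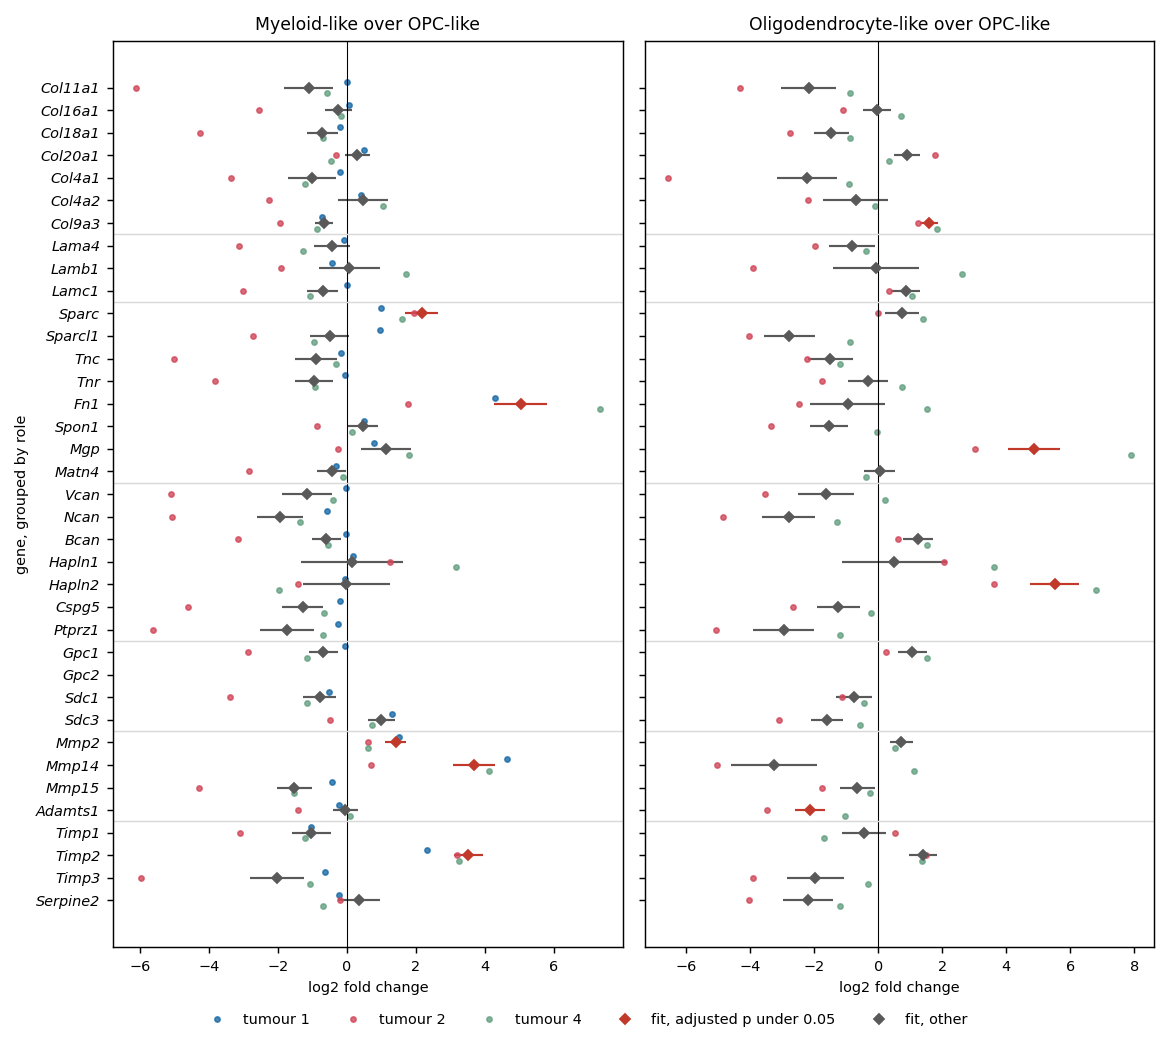
Log2 fold change of each matrix gene in myeloid-like over OPC-like cells (left) and in oligodendrocyte-like over OPC-like cells (right): small points are single tumours (ratio of CPM), diamonds the fit with its standard error, red where the adjusted p was under 0.05. Tumour 2 lies farthest left for most genes in both panels, Fn1, Mmp14, Timp2, Sparc and Mmp2 are red on the left, and Hapln2, Mgp, Col9a3 and Adamts1 on the right.

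Myeloid-like cells carried RNA of OPC genes to very different degrees in the 3 tumours. The 9 OPC markers summed to 54.3%, 3.96% and 48.2% of their OPC-like level in myeloid-like cells of tumours 1, 2 and 4, with 0, 0 and 1 marker at 0. Ptprz1 had 413, 17.5 and 356 CPM in myeloid-like cells, against 492, 878 and 577 in OPC-like cells, and Col11a1 had 249, 0.686 and 169 against 248, 59.0 and 255. Both were nearest to their OPC-like levels in tumour 1, lower in tumour 4 and far below in tumour 2. A setting chosen after seeing the data kept the myeloid-like cells with at least 20000 CPM of myeloid markers (80, 326 and 44 cells), in which OPC markers stood at 28.2%, 3.51% and 18.3%. There 6 of 36 genes rose and 13 fell, against 15.4% of all 14093 genes higher and 12.4% lower, and the 5 genes above were among the 6. The sixth was Sdc3, at 88.8, 115 and 167 CPM in these cells against 32.3, 170 and 80.8 in OPC-like cells, higher in tumours 1 and 4 and lower in tumour 2 (1.26 ± 0.38, adjusted p = 0.0254, edgeR). Among the 13 that fell were Ncan (-2.76), Ptprz1 (-2.52), Timp3 (-2.41), Mmp15 (-2.17) and Cspg5 (-2.13).

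In the wider list 29 of 193 genes passed in myeloid-like cells, each of them higher, and 12 of the 29 were among 37 other proteases and inhibitors. The largest rises were those of serglycin (Srgn, 7.35), the core proteoglycan of haematopoietic granules, cathepsin S (Ctss, 7.32) and the collagenase Mmp13 (7.23). Srgn had 488, 459 and 426 CPM in myeloid-like cells and 5.75, 14.2 and 0.646 in OPC-like cells. Mmp13 was at 7.49 CPM or less everywhere.

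The source of a transcript therefore differed from gene to gene. Myeloid-like cells gave 45.7% (exact binomial 95% interval 40.1 to 51.4) of all Fn1 UMIs of tumour 1, 40.4% (33.9 to 47.0) in tumour 2 and 73.2% (68.3 to 77.7) in tumour 4, while holding 5.95%, 19.7% and 1.79% of all UMIs. For Mmp14 the shares were 57.6% in tumour 1, 59 of 118 UMIs in tumour 2 and 16 of 64 in tumour 4. For Timp2 they were 23.0%, 53.6% and 14.0%. OPC-like cells gave 77.3%, 60.4% and 84.3% of Timp3 while holding 74.0%, 15.7% and 80.3% of all UMIs, so their share of Timp3 lay well above their share of the RNA in tumour 2 alone. Of Tnr they gave 67.6% in tumour 1 and 65.6% in tumour 4, below their share of all UMIs. In tumour 2, 68.7% of Tnr came from committed OPC-like cells, which held 26.8% of the UMIs. Hapln2 came from oligodendrocyte-like cells in tumours 2 and 4 (64.9%, and 159 of 318 UMIs), and in tumour 4 a further 27.4% came from OPC-like and 22.6% from unnamed cells.

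**Figure D5:**
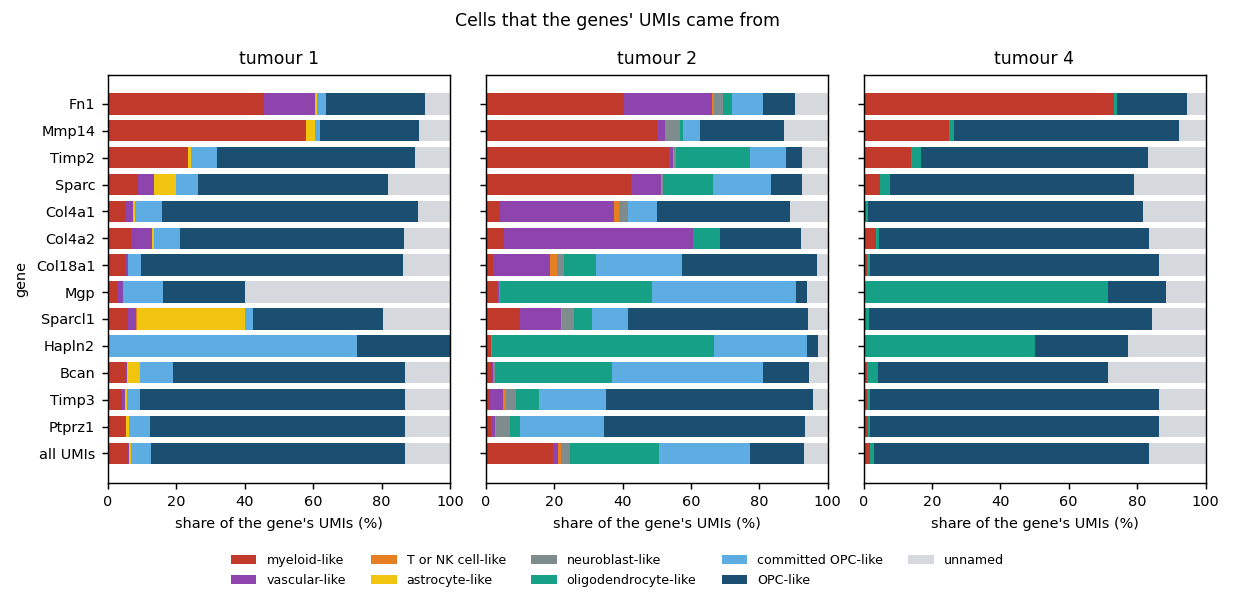
Share of a gene's UMIs that came from each cell class, in percent, for 13 of the matrix genes and for all UMIs in tumours 1, 2 and 4. Myeloid-like cells give 73.2% of Fn1 in tumour 4, vascular-like cells 55.3% of Col4a2 in tumour 2, and OPC-like cells 84.3% of Timp3 in tumour 4.

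The 27 vascular-like cells of tumour 2 gave 55.3% (38.3 to 71.4) of its Col4a2 UMIs, 33.3% (22.7 to 45.4) of Col4a1 and 16.7% of Col18a1 but 1.34% of all UMIs. Col4a1 and Col4a2 encode the paired chains of collagen IV and lie head to head on chromosome 8, overlapping by 22 bases. In tumour 4, where no cluster was vascular-like, 80.4% of Col4a1 and 78.9% of Col4a2 came from OPC-like cells, near their 80.3% of all UMIs. Col4a1 stood at 26.3 CPM (24.8 to 27.9) in OPC-like cells of tumour 4 and at 25.6 (24.0 to 27.4) in tumour 1, with overlapping intervals, and at 12.1 (8.01 to 17.4) in tumour 2. The 12 endothelial cells of tumour 2, led by Cldn5, had 1889 CPM of Sparc, 682 of Sparcl1 and 460 of Fn1. The 15 cells led by the mural gene Vtn had 1017 CPM of Sparc, 798 of Timp3 and 438 of Tnc. In tumour 1 a group of 5 endothelial cells had 1576 CPM of Sparc and 433 of Fn1. Sparc and Fn1 were thus far above their OPC-like levels in vascular cells of both tumours, but the classes are too small for the test, which asked for 20 cells in each of 2 tumours.

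The 23 astrocyte-like cells of tumour 1 were the only ones named so, and no test was made. They had 2056 CPM of Sparcl1 (1880 to 2243), 1888 of Ncan, 910 of Sparc, 905 of Ptprz1 and 632 of Bcan, against 17.4, 166, 57.1, 492 and 83.5 in OPC-like cells of that tumour. They gave 31.8% of the Sparcl1 UMIs of tumour 1 from 0.684% of its cells. Among classes of 20 or more cells, 12 of the 28 matrix genes at 20 CPM or more in tumour 1 were highest in these cells, as were 46.8% of all genes at that level. In tumour 2, 11 of 33 matrix genes were highest in vascular-like cells, where 20.9% of all genes were. Of Mgp in tumour 1, 59.9% came from unnamed cells, among them a cluster of 13 cells led by Rgs5 and Mgp that carried mural and astrocyte markers together.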

How the data were processed

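The values analysed are UMI counts, which the authors deposited as whole numbers for every gene and cell barcode. The authors also deposited a normalised signal, found to be each count scaled from its cell's total to the tumour's median total, and it was not used further. Libraries were made with the 10x Genomics 3′ version 2 kit, per the labels, and the submitters' processing notes name Cell Ranger 1.3.0, STAR 2.5.1 and mm10. How barcodes were called as cells was not found in these labels.

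Cells with at least 500 genes, at most 20% mitochondrial and at most 10% haemoglobin UMIs were kept (3360, 1548 and 4377). Each tumour was clustered alone in scanpy 1.11.5 (Leiden, resolution 1, 2000 variable genes, 30 components, 15 neighbours), without the 37 genes, the wider matrix list, the cell-cycle list and genes correlated with it (r over 0.2). Clusters were named from 16 marker lists if a score against the tumour's own baseline reached 2 and 3 markers had 20 CPM. Where no list reached 2, the OPC-like name was given if the OPC score reached 2 against a baseline over all tumours. Mixed clusters of 20 or more cells were clustered again and their parts named by the same rules. Parts that were still mixed, and smaller mixed clusters, stayed unnamed. No doublet caller was run. Cycling cells had at least 5 UMIs of the cell-cycle list after thinning to 2000 UMIs, and non-cycling cells at most 1.

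Counts were summed per tumour and class (20 or more cells) and tested with edgeR 4.0.16 in R 4.3.3 (quasi-likelihood, TMM, Benjamini-Hochberg over all genes, adjusted p under 0.05), after a test on simulated data. The tumour was a block, since sums of a tumour come from 1 animal. The rule for named genes was to give all 37, and of the wider list up to 3 called genes a direction. The members and lists were chosen with earlier results of these data known. The wider list shares Cspg4 with the OPC marker list and Vtn with the mural marker list. Their values in the class contrasts are thus no independent result. For cycling cells the p-values rest on the spread between 3 tumours. The other contrasts came from 1 fit of all classes with 20 or more cells and share its estimate of the spread. Their p-values thus do not measure the spread of a single class between its 2 or 3 tumours. Gene positions were taken from GENCODE (GRCm38). The annotated spans of Col18a1, Col9a3, Matn4, Gpc1, Timp1 and Timp3 overlap a gene on the other strand. Col4a1 and Col4a2 overlap each other by 22 bases, also on opposite strands. The spans of Gpc2 and Timp2 overlap a gene on the same strand. Whether reads fell in these overlaps was not examined, and the labels do not say how such reads were counted.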

Additional observations from a re-analysis of the deposited data

How the results depend on the processing

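In cycling against non-cycling OPC-like cells the 7 calls became 1 with DESeq2 1.42.0, 0 without the replicate block, 11 with at least 10 cell-cycle UMIs and 0 over all neural cells, where Timp3 (0.0256) and Ncan (0.12) reversed in log2 fold change. They ranged from 0 to 7 on leaving out a tumour and from 6 to 10 in the other settings. The 4 calls of oligodendrocyte-like cells became 10 with DESeq2, 17 with no filter on low counts, 0 without the replicate block, 2 at resolution 0.5, 13 with at most 10% mitochondrial UMIs and 5 to 11 on leaving out a tumour. The 5 calls of myeloid-like cells became 8 with DESeq2, 10 with no filter, 3 without the block (the calls of Fn1, Mmp14 and Timp2), 19 in cells with at least 20000 CPM of myeloid markers and 4 to 7 on leaving out a tumour. The call in committed OPC-like cells became 4 with DESeq2, 6 with no filter, 0 with RLE size factors, total UMIs, resolution 0.5, at most 10% mitochondrial UMIs or no block, and 0 to 4 on leaving out a tumour. At a 3-fold limit, 13 genes in OPC-like cells and 14 in neural cells stood apart between tumours, and on leaving out a tumour 6 to 19 and 7 to 18 did. These counts are given without the shares of all genes in the same settings. A shift particular to the matrix genes therefore cannot be read from them. The cause of these shifts was not tested. Total UMIs, purer myeloid-like cells and the OPC-like cells without the cluster of astrocyte markers were chosen after seeing the data. Where leaving out a tumour left a class in 1, its spread was taken from the other sums. Sums over few cells, such as 72 cycling OPC-like cells of tumour 2 and 65 oligodendrocyte-like cells of tumour 4, limit what the depth can show.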
